A study of Mus musculus with 6 samples.

Results

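The genes described here encode the hnRNP and SR splicing proteins, measured by RNA-seq in CP (cardiac progenitor) cells derived from 46C mouse ESCs. They were taken by symbol, as every row that starts with Hnrnp or that reads Srsf and a number, which gave 32 of the 25701 genes in the table. Of these, 31 had a mean normalized count of at least 10 over the 6 libraries and were tested among 15372 genes, 20 of them hnRNP genes and 11 SR genes. The remaining row, Hnrnpa1l2-ps, a pseudogene by its symbol, was listed at 0 in all Zhx1-KO libraries and at 0, 1.04 and 1.055 in 46C-Ctrl. The groups are 3 libraries of Zhx1-KO, in which Zhx1 was removed from the 46C line with CRISPR/Cas9 and a pair of guide RNAs, and 3 libraries of 46C-Ctrl, the line with Zhx1 intact. Both share the 46C background, which reports Sox1 expression by green fluorescence, and both were collected at the CP stage as polyA RNA. How many knockout clones stand behind the Zhx1-KO libraries was not stated. Since the study found hnRNPA1 among proteins bound by Zhx1, the question was which transcripts change when Zhx1 is removed, and here it is put to Hnrnpa1 and its relatives.

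hnRNP proteins coat nascent transcripts and guide splicing, export, stability and translation of mRNA. SR proteins carry RNA recognition motifs and a tail rich in arginine and serine, and many bind exonic enhancers and help the spliceosome to recognise exons, where hnRNP A/B proteins often act against them. Many genes of both families regulate their own level through exons that bring in an early stop codon, so that part of the transcript is removed by nonsense-mediated decay. Of the 31 genes tested here, 19 (61.3%) had an annotated nonsense-mediated decay transcript in GENCODE, 10 hnRNP and 9 SR genes, beside 24.5% of the 15153 tested genes with an annotation. The counts are sums over a gene, so productive and decaying transcripts cannot be told apart in them.

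The sequences before the start of Hnrnpa1, the gene the study turned to, and of Hnrnph3, Srsf6 and Srsf2, whose transcripts had the largest rise and the smallest adjusted p among the falls, are printed to show what stands before the genes with the clearest differences. Each is the stretch from 250 to 51 bases before the RefSeq start (GRCm38.p6), written 5′ to 3′ on the strand of the gene. Capitals mark the letters CCAAT, called the CCAAT box, and the letters GGGCGG, called the GC box, on either strand, overlaps between copies included. They lie at chr15:103240147-103240346 (plus strand, Hnrnpa1), chr10:63023900-63024099 (minus strand, Hnrnph3), chr2:162931258-162931457 (plus strand, Srsf6) and chr11:116853145-116853344 (minus strand, Srsf2).
Hnrnpa1: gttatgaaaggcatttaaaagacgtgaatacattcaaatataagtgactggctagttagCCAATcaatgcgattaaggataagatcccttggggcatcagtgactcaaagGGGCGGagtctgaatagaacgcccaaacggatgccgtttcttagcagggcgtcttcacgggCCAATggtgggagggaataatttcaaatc
Hnrnph3: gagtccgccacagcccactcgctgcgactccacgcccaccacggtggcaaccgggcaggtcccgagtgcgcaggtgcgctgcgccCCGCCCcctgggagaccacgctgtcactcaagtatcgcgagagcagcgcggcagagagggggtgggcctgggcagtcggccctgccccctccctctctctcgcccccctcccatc
Srsf6: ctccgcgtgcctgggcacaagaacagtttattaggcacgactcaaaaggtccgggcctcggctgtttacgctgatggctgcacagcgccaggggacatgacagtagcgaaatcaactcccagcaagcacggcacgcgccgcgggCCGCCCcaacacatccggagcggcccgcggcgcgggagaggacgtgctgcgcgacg
Srsf2: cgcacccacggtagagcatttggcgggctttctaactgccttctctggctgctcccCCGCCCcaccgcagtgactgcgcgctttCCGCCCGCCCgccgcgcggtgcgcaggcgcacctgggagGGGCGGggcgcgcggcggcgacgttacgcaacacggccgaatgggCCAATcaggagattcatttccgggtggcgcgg
Hnrnpa1 held 2 CCAAT boxes and 1 GC box, Hnrnph3 and Srsf6 held 1 GC box each and no CCAAT box, and Srsf2 held 1 CCAAT box and 4 GC boxes. RefSeq promoters were found for 29 of the 31 genes, with 41 start sites. A CCAAT box stood in 43.9% of these 41 windows, against 28.4% of all 32851 promoter windows of the same length, and a GC box in 68.3%, against 24.6%. The 32851 windows were not limited to genes tested here, and some of the 29 genes gave more than 1 window. A CCAAT box stood before Hnrnpa1, which was higher, and before Srsf2, which was lower, and a match is a description of letters, not of a bound site.

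The libraries summed to between 13769967 and 15940874 steps each, where a step is the smallest spacing of a library's values and was not shown to be 1 read, and every tested member except Srsf12 had at least 403 steps in each library. Among the replicates, 46C-Ctrl replicate 2 stood apart, with a chi-square per gene of 15.9 and 17.2 to the other 46C-Ctrl replicates, against 5.57 between those and 6.16 to 7.62 among Zhx1-KO libraries. The Zhx1 transcript was at 225, 325 and 308 in the libraries labelled Zhx1-KO and at 460, 181 and 457 in 46C-Ctrl. Its log2 fold change was -0.25 (adjusted p = 0.579, limma), and without 46C-Ctrl replicate 2 it was -0.70 (adjusted p = 0.0113), so the transcript does not check the labels. Of 6 CP markers, 5 were lower in Zhx1-KO, where they summed to 1081 to 1159, against 7770 to 8527 in 46C-Ctrl, and Tbx5 was at 1.01 to 3.02 in Zhx1-KO. Isl1 was the CP marker that was not called (adjusted p = 0.311, limma). Endothelial markers summed to 3758 to 3880 in Zhx1-KO and 846 to 971 in 46C-Ctrl (5 of 6 higher), and endoderm and epithelial markers to 20568 to 22090 in Zhx1-KO and 47627 to 53717 in 46C-Ctrl (8 of 9 lower). Of 8 neural markers tested, 6 were higher and 1 lower. The 6 had log2 fold changes of 1.21 (Otx2) to 4.6 (Pax6, at 0 in all 46C-Ctrl libraries). The lower gene, Nes, had the highest level of the list, with a mean of 1652 in Zhx1-KO and 2804 in 46C-Ctrl. Its fall offset the 6 rises in the sums, which were 3636 to 3709 in Zhx1-KO and 3219 to 3603 in 46C-Ctrl. These sums cover all 10 listed genes, with Neurog1 and Neurog2, which were too low to test. Proliferation markers summed to 48847 to 51562 in Zhx1-KO and 39273 to 39874 in 46C-Ctrl, with 3 of 8 higher and the other 5 not called. Of the 3, Top2a and Aurkb lie on chromosome 11, whose genes were mostly higher in Zhx1-KO, and Mki67 on chromosome 7. Top2a had a mean of 19248 in Zhx1-KO and 11568 in 46C-Ctrl, and Mki67 of 9272 in Zhx1-KO and 7936 in 46C-Ctrl. The part of these shifts in the results below was not tested, and in bulk RNA fewer cells of a type and less RNA per cell cannot be told apart. Whether the 3 libraries of a group are separate cultures is not stated beyond the study's mention of independent experiments, and the p-values cover only the spread among them, technical spread included.

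The splicing protein genes had small fold changes. Of the 31, 6 were higher in Zhx1-KO, 8 were lower and 17 were not called (limma, adjusted p under 0.05). This is 45.2% of the genes, beside a background in which 52.0% of all 15372 genes tested were called, 25.6% higher and 26.4% lower. Of the 3383 genes whose mean reached 1000, 24.4% were called higher and 39.7% lower. The groups did not overlap for 17 of the 31 genes, 6 above and 11 below 46C-Ctrl, beside 60.8% of all genes tested. The median size of the log2 fold change was 0.19 over the 31 genes, against 0.41 over all genes tested and 0.28 over the 3383 genes whose mean reached 1000, as that of 29 of the 31 did. Their median log2 fold change was -0.04, against 0.01 over all genes. A difference of at least 1.5-fold was seen in 2 of the 31 (6.45%), Hnrnph3 and Srsf6, against 36.9% of all genes and 18.7% of those whose mean reached 1000. Together the 31 genes took 1.13% ± 0.0199 of the summed values in Zhx1-KO and 1.16% ± 0.0190 in 46C-Ctrl (SD, n = 3 each), and the groups overlapped. Without 46C-Ctrl replicate 2, 5 were called higher and 8 lower.

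**Figure D1:**
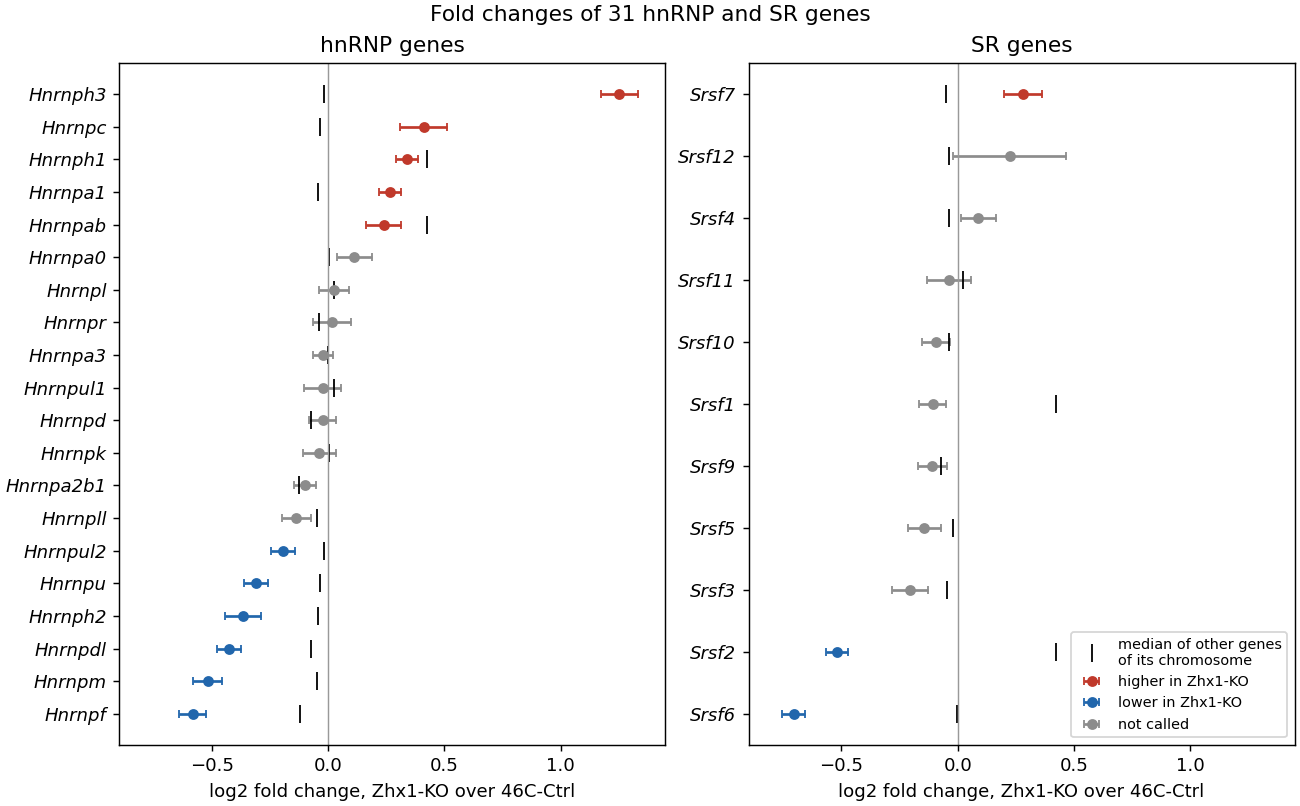
Log2 fold change of Zhx1-KO over 46C-Ctrl (x axis) for each of 20 hnRNP genes on the left and 11 SR genes on the right, with the limma standard error as the bar (n = 3 libraries each) and colour for the call. Black ticks give the median of the other tested genes of the same chromosome; Hnrnph3 at 1.25 and Srsf6 at -0.71 are the ends of the range, and the ticks of chromosome 11 stand at 0.42.

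hnRNP A1 is among the most abundant nuclear RNA-binding proteins and mostly favours exon skipping. Hnrnpa1 (ENSMUSG00000046434.16, chromosome 15, 103240432 to 103246692, GRCm38) had normalized counts of 23234, 24133 and 25412 in Zhx1-KO, against 19749, 20285 and 20483 in 46C-Ctrl. All Zhx1-KO libraries lay above all 46C-Ctrl libraries. The means were 24260 ± 1094 and 20173 ± 380 (SD, n = 3 each), with the log2 fold change at 0.27 ± 0.05 (SE; limma, adjusted p = 0.00256), or 1.20-fold. By exact permutation of the 6 libraries (two-sided) p was 0.1, the smallest that 3 against 3 can give, and this holds for every gene here whose groups did not overlap. The rise was smaller under quantile normalization, with a log2 fold change of 0.12 (adjusted p = 0.0451, limma). The other 573 tested genes of chromosome 15 had a median of -0.05. Per kb of exon, taken over all annotated exons of a gene, Hnrnpa1 had the highest level of the 31 genes, 7694 in Zhx1-KO and 6398 in 46C-Ctrl. This length can exceed that of the mRNA, and unevenly, so the scale compares genes only roughly. It was 3153 bases for Hnrnpa1, 2678 for Hnrnpa0 and 22199 for Hnrnpr. Its share of the summed hnRNP counts was 19.03% ± 0.467 in Zhx1-KO and 15.6% ± 0.529 in 46C-Ctrl (SD, n = 3 each). Hnrnpa1 has processed pseudogene copies, and how shared reads were counted is not given, so its level is uncertain to that extent.

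The close relatives of Hnrnpa1 did not follow it as a group. Among the 7 genes of the hnRNP A/B and D family, 2 were higher, 1 lower and 4 not called, where 52.0% of all genes tested were called. Hnrnpa2b1, a close paralog, had 6241, 6585 and 6167 in Zhx1-KO, against 6790, 6608 and 6974 in 46C-Ctrl. The groups did not overlap but by a narrow margin, and its log2 fold change of -0.10 (standard error 0.05) was not called (adjusted p = 0.103, limma). The ratio of Hnrnpa1 to Hnrnpa2b1 counts was 3.84 ± 0.248 in Zhx1-KO and 2.97 ± 0.0862 in 46C-Ctrl (SD, n = 3 each), with no overlap.

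Hnrnpab, which binds AU-rich RNA and single-stranded DNA, lies on chromosome 11 and had 10065, 10905 and 11158 in Zhx1-KO, against 8976, 8338 and 9986 in 46C-Ctrl. The groups did not overlap, and its log2 fold change was 0.24 ± 0.07 (SE; limma, adjusted p = 0.0282). The call was lost when 46C-Ctrl replicate 2 (adjusted p = 0.0601, log2 fold change 0.18), Zhx1-KO replicate 2 (0.0816) or Zhx1-KO replicate 3 (0.0896) was left out, and likewise without 46C-Ctrl replicate 1 (0.0742). Hnrnpdl, a relative of hnRNP D that regulates its own splicing, had 1712, 1700 and 1844 in Zhx1-KO, against 2342, 2328 and 2404 in 46C-Ctrl. All Zhx1-KO libraries were lower, with a log2 fold change of -0.43 ± 0.05 (SE; limma, adjusted p = 0.000326). Hnrnpd itself, the AU-rich element binding protein AUF1, lies next to Hnrnpdl on chromosome 5 and had 3365 ± 153 in Zhx1-KO and 3423 ± 176 in 46C-Ctrl (SD, n = 3 each), with a log2 fold change of -0.02 (adjusted p = 0.747, limma). Hnrnpa0, which takes part in mRNA stability, had 16225, 17191 and 17027 in Zhx1-KO and 16556, 13748 and 16517 in 46C-Ctrl. Its groups overlapped, and the log2 fold change of 0.11 was not called (adjusted p = 0.256, limma). Hnrnpa3, another A/B protein, was at -0.02 (adjusted p = 0.698, limma). Per kb of exon, Hnrnpa0 came after Hnrnpa1 with 6279 in Zhx1-KO and 5828 in 46C-Ctrl, and Hnrnpab had 3850 in Zhx1-KO and 3271 in 46C-Ctrl.

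The hnRNP F/H family moved in opposite directions. hnRNP F, H1, H2 and H3 recognise runs of G and set the splicing of nearby exons. All 4 genes were called, 2 higher and 2 lower, beside 52.0% of all genes tested and 64.1% of those whose mean reached 1000. Relative to neighbouring genes, Hnrnph1 turned to -0.085 minus the median of chromosome 11 and to -0.049 minus the median within 5 Mb. Hnrnpf stayed lower at -0.46 minus the median of chromosome 6 and turned to 0.10 minus the median within 5 Mb. Hnrnph3 (chromosome 10, 63014664 to 63024217) had 1083, 1131 and 959 in Zhx1-KO, against 463, 440 and 425 in 46C-Ctrl. Its lowest Zhx1-KO library was above the highest 46C-Ctrl library by a wide margin, and the log2 fold change was 1.25 ± 0.08 (SE; limma, adjusted p = 1.51e-05), a 2.38-fold rise. Hnrnph1 (chromosome 11, 50376990 to 50386528), the main H protein, had 6423, 6676 and 6937 in Zhx1-KO, against 5322, 5109 and 5407 in 46C-Ctrl. All Zhx1-KO libraries were higher, with a log2 fold change of 0.34 ± 0.05 (SE; limma, adjusted p = 0.000736).

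Hnrnpf had 8328, 7401 and 7967 in Zhx1-KO, against 11359, 12416 and 11707 in 46C-Ctrl. The groups were far apart, and the log2 fold change was -0.58 ± 0.06 (SE; limma, adjusted p = 0.00013). Per kb of exon it had the highest level of the family, 2592 in Zhx1-KO and 3882 in 46C-Ctrl. Hnrnph2, the X-linked paralog of Hnrnph1, had 1165, 1029 and 980 in Zhx1-KO, against 1427, 1292 and 1368 in 46C-Ctrl. All Zhx1-KO libraries were lower, with a log2 fold change of -0.37 ± 0.08 (SE; limma, adjusted p = 0.00546). Reads shared by Hnrnph1 and Hnrnph2, which are near copies in their coding sequence, may have been split by the counting.

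Within the family the balance shifted. Hnrnpf made up 47.3% ± 1.70 of the 4 summed counts in Zhx1-KO and 62.5% ± 1.73 in 46C-Ctrl, Hnrnph1 40.03% ± 1.94 in Zhx1-KO and 27.9% ± 1.21 in 46C-Ctrl, and Hnrnph3 6.34% ± 0.634 in Zhx1-KO and 2.34% ± 0.133 in 46C-Ctrl (SD, n = 3 each). None of these shares, which are not corrected for length, overlapped between groups. The family sum was 16694 ± 402 in Zhx1-KO and 18911 ± 343 in 46C-Ctrl (SD, n = 3 each). The ratio of Hnrnph1 to Hnrnpf was 0.771, 0.902 and 0.871 in Zhx1-KO, against 0.468, 0.411 and 0.462 in 46C-Ctrl.

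**Figure D2:**
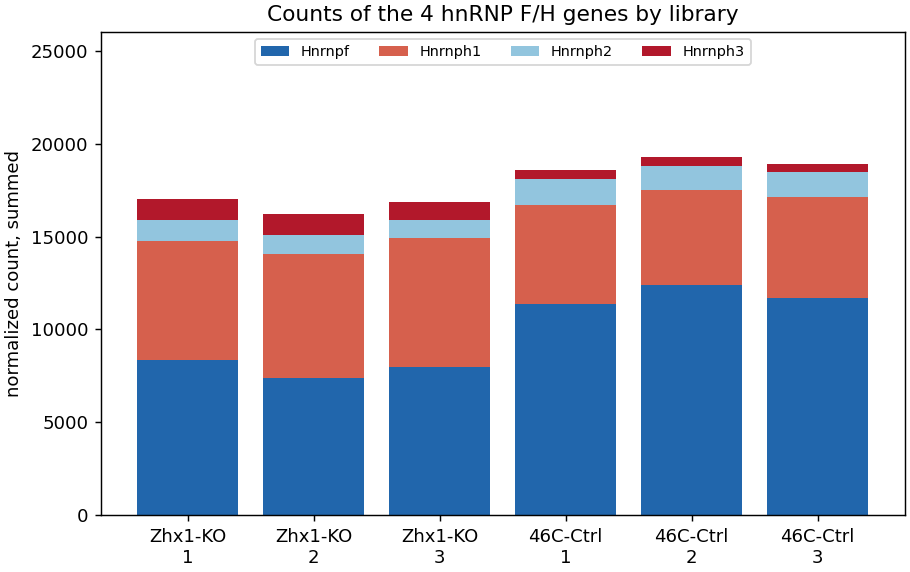
Normalized counts of Hnrnpf, Hnrnph1, Hnrnph2 and Hnrnph3 stacked for each library (y axis: summed normalized count), with the 3 Zhx1-KO libraries to the left of the 3 of 46C-Ctrl. The Hnrnpf block is shorter and the Hnrnph1 and Hnrnph3 blocks taller in every Zhx1-KO library, with sums of 16238 to 16999, against 18571 to 19256 in 46C-Ctrl.

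Among the remaining hnRNP genes, Hnrnpc was higher. hnRNP C binds runs of U and keeps cryptic exons out of mRNA. Hnrnpc (chromosome 14, 52073377 to 52104028) had 2265, 2308 and 2234 in Zhx1-KO, against 1437, 1878 and 1844 in 46C-Ctrl. The Zhx1-KO libraries lay close together and 46C-Ctrl replicate 1 was the lowest, and the log2 fold change was 0.41 ± 0.10 (SE; limma, adjusted p = 0.0105). Without that library it was 0.29 (adjusted p = 0.00514, limma).

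Hnrnpm, whose protein binds GU-rich RNA and sets splicing in epithelial and mesenchymal cells, had 5092, 5583 and 5343 in Zhx1-KO, against 7657, 7148 and 8170 in 46C-Ctrl. The groups were clearly separate, with a log2 fold change of -0.52 ± 0.06 (SE; limma, adjusted p = 0.000307). Hnrnpu (scaffold attachment factor A, which ties chromatin to RNA) had 10479, 10918 and 10956 in Zhx1-KO, against 13776, 12548 and 13837 in 46C-Ctrl. All Zhx1-KO libraries were lower, with a log2 fold change of -0.31 ± 0.05 (SE; limma, adjusted p = 0.00175). Hnrnpul2, a relative of Hnrnpu, had 4872, 5172 and 5131 in Zhx1-KO, against 5899, 5470 and 6002 in 46C-Ctrl, and its log2 fold change was -0.19 ± 0.05 (SE; limma, adjusted p = 0.0157). This small difference was not called under quantile normalization (adjusted p = 0.0968, limma) or without Zhx1-KO replicate 1 (0.0568), 46C-Ctrl replicate 1 (0.052) or 46C-Ctrl replicate 3 (0.0588).

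The other hnRNP genes were not called, which does not show that they are equal. Hnrnpk, a binder of C-rich RNA, had a log2 fold change of -0.04 (adjusted p = 0.671, limma), Hnrnpl, which binds CA repeats, 0.02 (0.775), Hnrnpll, known for exon skipping in lymphocytes, -0.14 (0.101), Hnrnpr 0.02 (0.89) and Hnrnpul1 -0.02 (0.829). Only Hnrnpll of these did not overlap, with 1778, 1688 and 1696 in Zhx1-KO, against 1793, 1849 and 2042 in 46C-Ctrl. Apart from Srsf12, the 17 genes not called, in both families, had standard errors of 0.04 to 0.10 on the log2 scale, with fold changes between -0.21 and 0.11.

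Of the 11 SR genes, 1 was higher, 2 were lower and 8 were not called, so that 27.3% were called, beside 52.0% of all genes tested. SR transcripts took 0.225% ± 0.00506 of all values in Zhx1-KO and 0.260% ± 0.00773 in 46C-Ctrl, and hnRNP transcripts 0.909% ± 0.0168 in Zhx1-KO and 0.896% ± 0.0208 in 46C-Ctrl (SD, n = 3 each). The ratio of summed hnRNP to SR counts was 3.96, 4.13 and 4.01 in Zhx1-KO, against 3.58, 3.28 and 3.50 in 46C-Ctrl, with no overlap. Srsf2 and Srsf6, the 2 SR genes called lower, had the largest falls in mean count. The hnRNP shares overlapped between groups, so the ratio is not a shift of both families.

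Srsf6 (chromosome 2, 162931528 to 162937121), an SR protein with 2 RNA recognition motifs, carried the largest fall. It had 2766, 2726 and 2714 in Zhx1-KO, against 4232, 4538 and 4621 in 46C-Ctrl. The Zhx1-KO libraries lay within a narrow band far below 46C-Ctrl, and the log2 fold change was -0.71 ± 0.05 (SE; limma, adjusted p = 2.12e-05), a 1.63-fold fall. Srsf4, its closest relative in domain layout, had 1855 ± 83.4 in Zhx1-KO and 1747 ± 164 in 46C-Ctrl (SD, n = 3 each), with a log2 fold change of 0.09 (adjusted p = 0.365, limma). The ratio of Srsf6 to Srsf4 was 1.48 ± 0.0787 in Zhx1-KO and 2.57 ± 0.325 in 46C-Ctrl (SD, n = 3 each).

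Srsf2 (chromosome 11, 116849901 to 116853094), known as SC35, which marks nuclear speckles and activates exons, had 6708, 6500 and 6459 in Zhx1-KO, against 9358, 9034 and 9803 in 46C-Ctrl. The groups were far apart, with a log2 fold change of -0.52 ± 0.05 (SE; limma, adjusted p = 7.27e-05). Per kb of exon it had the highest level of the SR genes, 2216 in Zhx1-KO and 3177 in 46C-Ctrl. This rank depends on the length used, 2958 bases for Srsf2 and 7899 for Srsf3. Their mean counts in Zhx1-KO were close, at 6556 for Srsf2 and 6445 for Srsf3. Srsf1, the founding SR protein, on the same chromosome, had 3497, 3575 and 3607 in Zhx1-KO, against 3542, 4045 and 3935 in 46C-Ctrl. The groups overlapped through 46C-Ctrl replicate 1, and the log2 fold change of -0.11 was not called (adjusted p = 0.162, limma). The call changed without that library (adjusted p = 0.0349, log2 fold change -0.16). The ratio of Srsf2 to Srsf1 was 1.84 ± 0.0671 in Zhx1-KO and 2.46 ± 0.207 in 46C-Ctrl (SD, n = 3 each).

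Srsf7 and Srsf3 are close relatives that couple splicing to export, and they differed in direction. Srsf7 had 2451, 2384 and 2514 in Zhx1-KO, against 1884, 2291 and 1893 in 46C-Ctrl, with the highest 46C-Ctrl value in replicate 2. The groups did not overlap, and the log2 fold change was 0.28 ± 0.08 (SE; limma, adjusted p = 0.0206). The call was lost without Zhx1-KO replicate 1 (0.054) or 3 (0.0651), or without 46C-Ctrl replicate 1 (0.0671) or 3 (0.0694). Srsf3 had 6165, 6237 and 6933 in Zhx1-KO, against 6965, 8273 and 7106 in 46C-Ctrl, narrowly without overlap, and its log2 fold change of -0.21 was not called (adjusted p = 0.0583, limma). It passed without Zhx1-KO replicate 3 (0.0409) or 46C-Ctrl replicate 1 (0.0492). Srsf7 stood at 38.1% ± 1.75 of Srsf3 in Zhx1-KO and 27.1% ± 0.531 in 46C-Ctrl (SD, n = 3 each).

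Of the SR genes not yet described, Srsf5 and Srsf9 have 2 RNA recognition motifs. Srsf5 had a log2 fold change of -0.14 (adjusted p = 0.128, limma) and Srsf9 of -0.11 (0.182). Srsf10, known in mouse for a role in heart development, was at -0.09 (0.242) and Srsf11 at -0.04 (0.764). Srsf12 was low, with 34.3, 30.3 and 37.0 in Zhx1-KO and 30.2, 31.1 and 25.3 in 46C-Ctrl, and its log2 fold change of 0.22 had a standard error of 0.24 (adjusted p = 0.473, limma).

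**Figure D3:**
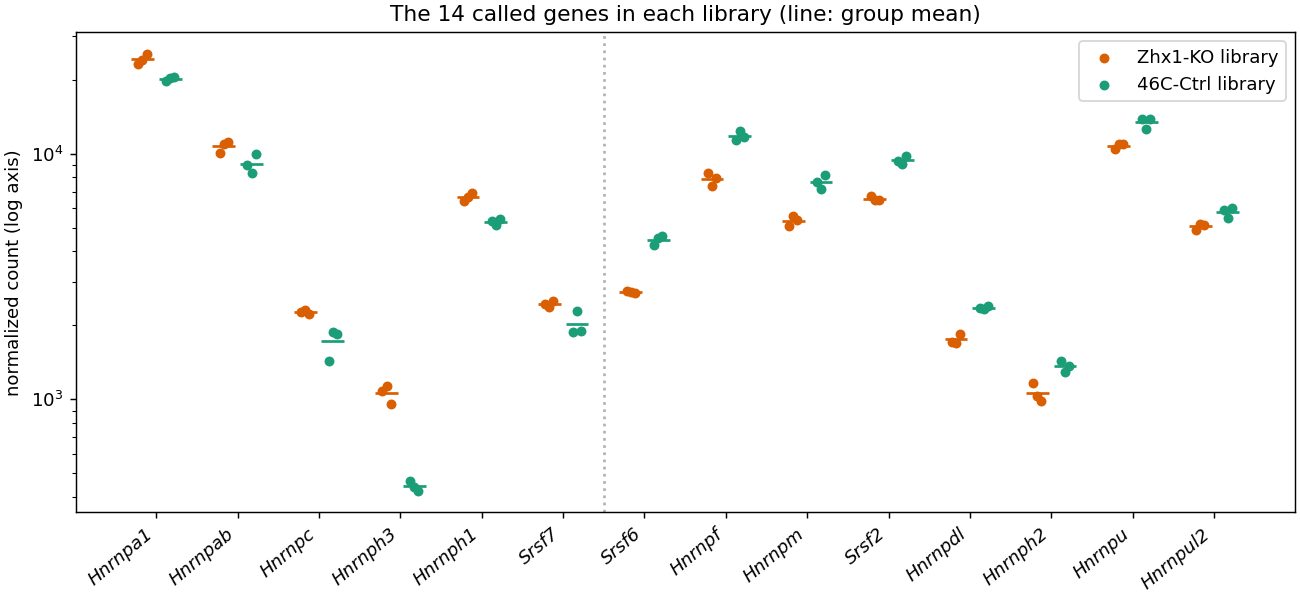
Normalized counts on a log axis of the 14 called genes in each library, Zhx1-KO left of 46C-Ctrl for each gene and the group mean as a line, with the 6 higher genes left of the dotted line and the 8 lower genes right of it. All 14 are free of overlap, Hnrnpa1 lies at 23234 to 25412 in Zhx1-KO, against 19749 to 20483 in 46C-Ctrl, and Hnrnph3 shows the widest gap.

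The neighbours of some of these genes also differed between the groups. Genes of chromosome 11 were mostly higher in Zhx1-KO: of 1185 tested, 57.0% were called higher and 9.62% lower, and their median log2 fold change was 0.42. Of the 4 genes described here that lie on it, Hnrnph1 and Hnrnpab were higher, Srsf2 lower and Srsf1 not called. Minus the median of the other genes of the chromosome, Hnrnph1 was at -0.09, Hnrnpab at -0.19, Srsf1 at -0.53 and Srsf2 at -0.94, so the direction of Hnrnph1 and Hnrnpab turned and that of Srsf2 grew. Hnrnpf lies on chromosome 6 among 104 tested genes within 5 Mb whose median log2 fold change was -0.68, and relative to these it was at 0.10. Minus the median of the whole chromosome it stayed lower, at -0.46. Hnrnph3 and Srsf6 stood apart from their neighbours, at 1.35 and -0.67 relative to the median within 5 Mb. Hnrnpa1 was at 0.28 on this measure, beside a median of -0.02 over 105 neighbouring genes. Hnrnph2, on chromosome X, was at -0.62, beside a median of 0.25 over 50 neighbouring genes. Outside chromosome 11 and without Hnrnpf, 4 of 26 genes (15.4%) were higher, 6 (23.1%) lower and 16 not called, beside 23.1% higher and 27.9% lower of all tested genes outside chromosome 11. What moved chromosome 11 and the segments of chromosomes 6 and X was not tested.

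Other splicing genes were described by lists for comparison, as shares of the list called beside the 25.6% higher and 26.4% lower of all genes tested. The hnRNP proteins under other symbols had 3 higher, 2 lower and 5 not called of 10. Ptbp1, the polypyrimidine tract binding protein that represses neuronal exons, had 5421, 5236 and 4910 in Zhx1-KO, against 7201, 6747 and 7365 in 46C-Ctrl, with a log2 fold change of -0.45 (adjusted p = 0.000365, limma). Rbmx, an X-linked hnRNP G, was at 0.36 (0.00935). Pcbp3, a poly(C) binding protein, was at 1.02 (0.0314), and its groups overlapped, with 133, 312 and 216 in Zhx1-KO and 136, 76.6 and 101.2 in 46C-Ctrl. Its call was lost without Zhx1-KO replicate 2 (0.0935) or 3 (0.0812) and without 46C-Ctrl replicate 2 (0.0846) or 3 (0.0702), and also with the replicate number as a block (0.066) or without a trend in limma (0.0694).

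SR-related proteins had 4 higher, 7 lower and 7 not called of 18. Luc7l3, a U1 snRNP associated factor on chromosome 11, had 2291, 2373 and 2508 in Zhx1-KO, against 1024, 1191 and 1032 in 46C-Ctrl, a log2 fold change of 1.15 (adjusted p = 1.45e-05, limma). Rsrc2 was at 0.73 (0.000987), Rsrc1 at 0.61 (0.000189) and Scaf11, an SR-related factor of spliceosome assembly, at -0.65 (0.00342). SR protein kinases and import factors, which phosphorylate the arginine and serine tail and carry the proteins into the nucleus, had 6 higher, 2 lower and 3 not called of 11. Srpk1 was lower, with 771, 970 and 1017 in Zhx1-KO, against 1296, 1200 and 1302 in 46C-Ctrl, a log2 fold change of -0.47 (adjusted p = 0.00709, limma). Srpk2 was at 0.33 (0.018), Clk2 at 0.43 (0.0278, groups overlapping) and Clk4, on chromosome 11, at 0.39 (0.0161). The call of Srpk2 was lost without Zhx1-KO replicate 1 (0.0507) or 2 (0.0593), and that of Clk4 without Zhx1-KO replicate 1 (0.0576) or 46C-Ctrl replicate 3 (0.0518). The call of Clk2 was lost without Zhx1-KO replicate 2 (0.0896) or 3 (0.0821) and without 46C-Ctrl replicate 1 (0.082) or 2 (0.0738). Without a trend in limma, Clk2 was not called either (0.059).

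Splicing regulators of restricted cell types had the largest median size of log2 fold change of these 6 lists, 0.75, with 12 higher, 5 lower and 6 not called of 23. Celf3, a neuronal factor, had 31.2, 20.2 and 37.0 in Zhx1-KO and 0.975, 0 and 0 in 46C-Ctrl, and its fitted log2 fold change of 4.56 (adjusted p = 0.000398, limma) depends on the pseudocount. Rbfox3, known as the neuronal marker NeuN and lying on chromosome 11, had 52.4, 66.7 and 34.3 in Zhx1-KO, against 5.85, 0 and 16.9 in 46C-Ctrl, a log2 fold change of 3.34 (adjusted p = 0.0206, limma). Its call was lost without Zhx1-KO replicate 1 (0.0566) or 2 (0.0669), and also without a trend in limma (0.0503). Esrp2, which sets epithelial splicing, had 50.4, 59.7 and 64.3 in Zhx1-KO, against 263, 320 and 297 in 46C-Ctrl, a log2 fold change of -2.32 (adjusted p = 1.52e-05, limma). Rbm20, which governs titin splicing in heart muscle, had 134, 136 and 108 in Zhx1-KO, against 403, 312 and 373 in 46C-Ctrl, a log2 fold change of -1.52 (adjusted p = 9.28e-05, limma). Rbm24, also a splicing regulator of heart muscle, went the other way, with a log2 fold change of 0.56 (adjusted p = 0.000684, limma). The neural, endothelial and epithelial marker values given above moved beside these, and their part was not tested. Elavl3 and Elavl4 are in both this list and the neural markers.

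Core snRNP proteins, the building blocks of the spliceosome, had 11 higher, 13 lower and 27 not called of 51, with a median size of 0.17. Snrpn, an imprinted Sm protein, had 4733, 5003 and 4654 in Zhx1-KO, against 2644, 2521 and 2700 in 46C-Ctrl, a log2 fold change of 0.87 (adjusted p = 9.06e-06, limma). Lsm6 was at 0.61 (0.00167), Eftud2, on chromosome 11, at 0.48 (0.000813) and Sf3b4, of the U2 snRNP, at -0.50 (0.000717). Exon junction and nonsense-mediated decay genes had 3 higher, 5 lower and 7 not called of 15. Magohb, a paralog of the exon junction protein Magoh, had 59.5, 37.4 and 57.2 in Zhx1-KO, against 146, 174 and 141 in 46C-Ctrl, a log2 fold change of -1.59 (adjusted p = 0.00062, limma). Upf1, the central helicase of the decay pathway, was at -0.50 (0.000616) and Smg9 at -0.45 (0.00514).

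**Figure D4:**
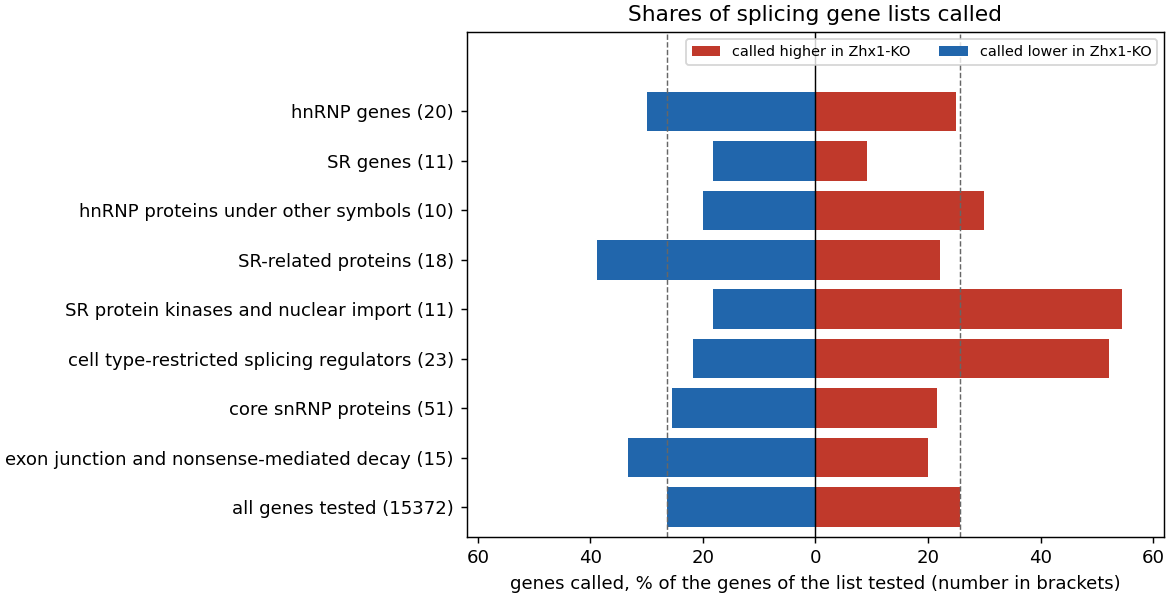
Share of each list's tested genes called higher (right) and lower (left) in Zhx1-KO, in percent, with the number tested in brackets and dashed lines at the 25.6% higher and 26.4% lower of all 15372 genes tested. Kinases and import factors (54.5%), cell type-restricted regulators (52.2%) and hnRNP proteins under other symbols (30%) reach past the right line. SR-related proteins (38.9%), exon junction and decay genes (33.3%) and hnRNP genes (30%) reach past the left line. The hnRNP genes (6 of 20 lower) and hnRNP proteins under other symbols (3 of 10 higher) are near these lines. Of the 3383 genes whose mean reached 1000, 24.4% were called higher and 39.7% lower, which is not drawn. SR genes and core snRNP proteins stay inside both lines.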

How the data were processed

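PolyA RNA of CP cells was sequenced in 6 libraries. Per the study's methods and the submitters' notes, reads were trimmed by the authors (cutadapt 1.18), mapped with HISAT2 2.1.0 to GRCm38 and quantified with StringTie 1.3.4d. Cufflinks and DESeq2 are also named, without versions. The deposited signal is a normalized count per gene, as the authors named it. Values were whole multiples of a library step (100% within 0.01), but steps near 1 in Zhx1-KO replicates 1 and 2 left whole reads unproven, and no count test was run. Genes averaging at least 10 were fitted on log2(value + 1) with limma 3.58.1 (R 4.3.3). The model held the group and a mean-variance trend, p-values were adjusted by Benjamini-Hochberg across the 15372 genes, and an adjusted p under 0.05 made a call. Such fold changes understate low genes. The fit was tested on simulated data.

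Members and lists were chosen with earlier results of these data known. Named are Hnrnpa1, the 6 strongest rises and 6 strongest falls among called members, the 4 members of highest mean, every member not called, and of each other list up to 4 called genes with the largest fold change. Some genes that this rule names are not reported here. Hnrnpul2 and Rbm24, outside this rule, were named after their values were seen, as were the marker genes named singly. Positions and exon lengths come from GENCODE M21 and promoters from RefSeq, both on GRCm38. Exon length joins all annotated exons of a gene, over all its transcripts. All columns of per-sample values were used.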

Additional observations from a re-analysis of the deposited data

How the results depend on the processing

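All 14 called members kept their direction under the 15 settings tried, and 11 to 14 kept their call. Of the changes of side, those of Hnrnpab, Hnrnpul2, Srsf7, Srsf3 and Srsf1 were with left-out libraries, limma without trend or quantile normalization; the cause was not tested. Without trend, the adjusted p was 0.0863 for Hnrnpab, 0.0658 for Hnrnpul2 and 0.0631 for Srsf7 (limma). Hnrnpa1 ran from 0.23 to 0.30 with a library left out (adjusted p 0.00406 to 0.013, limma). Minus the median of its chromosome, Hnrnph1 was at -0.085 and Hnrnpab at -0.19, both turned. Hnrnpa0, not called, turned to -0.014 under quantile normalization. Zhx1 ran from -0.70 to -0.028 with a library left out.

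Requiring a change of at least 1.5-fold as well left 2439 genes higher and 2193 lower over all genes, 1 member higher and 1 lower, and 14 higher and 6 lower among the other splicing genes. At an adjusted p under 0.01, 3 members and 23 other splicing genes were higher, and 7 members and 25 other splicing genes lower. With a library left out, members called higher ran from 4 to 5 and lower from 7 to 9, all genes higher from 3185 to 3787 and lower from 3460 to 3873, and other splicing genes higher from 30 to 38 and lower from 30 to 36. Under quantile normalization, 49 other splicing genes were higher and 25 lower, against 39 and 34 as reported. No scaling moved the median of all genes by over 0.1. The replicate numbers showed no sign of pairing the libraries. Deviations of same-numbered libraries correlated at 0.0042, -0.069 and 0.00059, beside -0.097 to 0.103 for libraries of unlike number. With 3 libraries per group this cannot decide whether they were paired. With the replicate block 3625 genes were higher and 3749 lower, with all 14 members still called. Pcbp3 of the other splicing genes lost its call (adjusted p = 0.066, limma).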
